A study of Homo sapiens with 12 samples.

Results

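The small nucleolar RNA (snoRNA) host long noncoding RNAs come from genes whose exons form a spliced RNA that is not known as a protein-coding mRNA, while their introns carry snoRNAs. The host genes followed here were GAS5, ZFAS1, SNHG1, SNHG5, SNHG7, SNHG8, SNHG12, SNHG15, SNHG16 and DANCR, 10 of the 26485 genes in the tables. They were chosen by name with earlier results of these data known. The shares of all tested genes given below are therefore not an independent test of them. All 10 were abundant enough to be tested, among 14865 genes tested. The RNA came from OVCAR8, an established ovarian cancer cell line grown in RPMI medium with serum, after 7 h in 4 conditions with 3 libraries each. The control cells received vehicle. The EC359 cells received 150 nM EC359, an inhibitor of the leukemia inhibitory factor receptor (LIFR). The trametinib cells received 100 nM trametinib, an inhibitor of the kinases MEK1 and MEK2, and the combination cells received both agents at those doses. All groups are 1 cell line at 1 time point, and the labels do not say whether the 3 libraries of a group came from separate cultures, so p-values measure the spread between these libraries, which may be technical.

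The introns of a host gene are cut out by splicing, and the snoRNAs are trimmed from them. C/D box snoRNAs guide ribose methylation of ribosomal RNA, and H/ACA box snoRNAs guide pseudouridylation. The joined exons that remain are exported, are often engaged by ribosomes over short reading frames, and are then removed by nonsense-mediated decay (NMD), which acts only on RNA that is being translated. Several of these genes also begin with a terminal oligopyrimidine (TOP) tract, a cytosine followed by a run of pyrimidines that they share with the ribosomal protein mRNAs and that ties translation to mTOR signaling. The level of such an RNA therefore depends on transcription, splicing and decay together, and RNA-seq of polyadenylated RNA measures only the sum of the 3.

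Total counts lay between 24790392 and 32467283 per library, and 0 pairs of libraries were identical. The epithelial markers KRT8 (1744 to 1962 CPM, the count after TMM normalization for library size), KRT18, KRT7, EPCAM and PAX8 (73.7 to 123 CPM) were present in every library, while MUC16 (at most 0.038 CPM) and KRT19 (at most 0.0845 CPM) were near 0. Of the markers of other cells, PTPRC, CD3E and DCN had no count, and PECAM1 and COL3A1 were at most 0.19 and 0.188 CPM. The fibroblast-associated collagen gene COL1A1 lay between 219 and 525 CPM. In bulk RNA, fewer cells of a type and less RNA per cell cannot be told apart.

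The 10 host genes are compact genes spread over 8 chromosomes. GAS5 (growth arrest specific 5) had the most exons, 12 within 4087 bases on chromosome 1, with 10 snoRNAs in its introns. SNHG1, first described as the host of the U22 snoRNA, had 11 exons within 3901 bases on chromosome 11 and 8 snoRNAs. SNHG12 on chromosome 1 held 4 snoRNAs. ZFAS1 on chromosome 20 and SNHG16 on chromosome 17 held 3 each, SNHG5 on chromosome 6 and SNHG7 on chromosome 9 held 2 each, and SNHG8 and DANCR on chromosome 4 and SNHG15 on chromosome 7 held 1 each. Of these 35 snoRNAs, 27 were C/D and 8 were H/ACA, and 33 lay wholly outside the exons that were counted for the host. The 2 exceptions were SNORA17 and SNORA43, which lie within an exon of SNHG7.

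**Figure D1:**
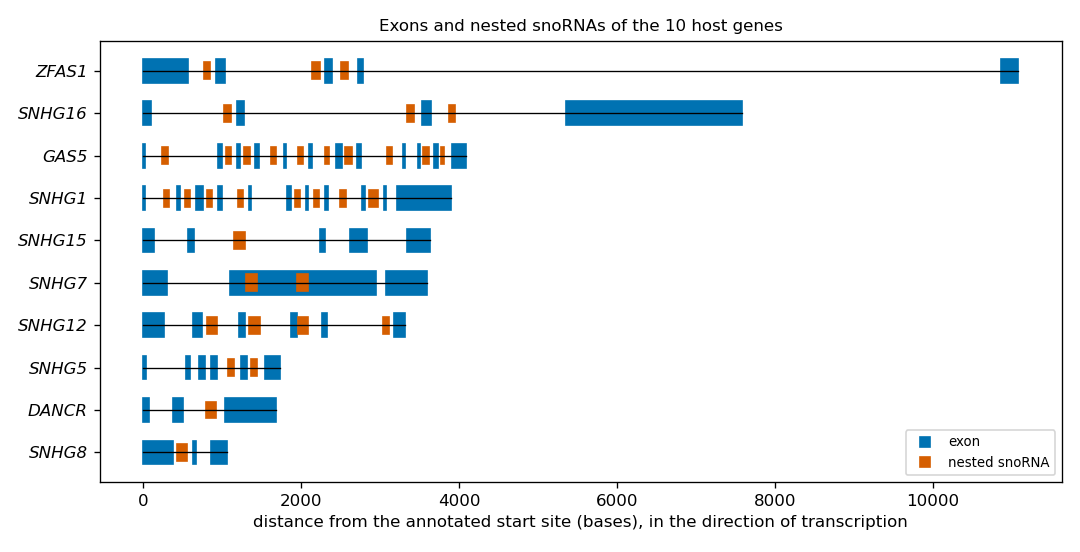
Exons (blue) and nested snoRNAs (orange) of the 10 host genes in the deposited hg38 annotation, drawn to scale as distance in bases from the annotated start site in the direction of transcription. The snoRNAs alternate with exons along GAS5 (10 snoRNAs) and SNHG1 (8 snoRNAs), and only in SNHG7 do they lie within an exon.

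The sequence around the transcription start is shown for the host genes in which it carries one of 2 features. These are a TOP start (the first base is C and the next 4 are each C or T) and the letters TATAA between 40 and 16 bases before the start, the TATA box position. A RefSeq promoter (GRCh38.p14, 250 bases before to 50 bases after the start) was found for 9 of the 10 host genes, all but SNHG15. A TOP start was present in 3 of the 9 (ZFAS1, SNHG5 and SNHG12), against 4.07% of all 35116 promoters and 56.5% of the 85 ribosomal protein promoters. TATAA at that position was present in 5 of the 9 (ZFAS1, SNHG5, SNHG7, SNHG8 and SNHG12), against 3.91% of all promoters and 10.6% of the ribosomal protein promoters. The TATAA search was chosen after the sequences had been seen. The lines below give 40 bases before and 40 bases from the RefSeq start on the transcribed strand, 5′ to 3′, with TATAA and the TOP tract in capitals. They come from chr20:49278602-49278681 (plus strand, ZFAS1), chr6:85678694-85678773 (minus, SNHG5), chr1:28581834-28581913 (minus, SNHG12), chr9:136728145-136728224 (minus, SNHG7) and chr4:118278722-118278801 (plus, SNHG8).
ZFAS1: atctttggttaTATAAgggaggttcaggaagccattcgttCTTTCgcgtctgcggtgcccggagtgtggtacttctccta
SNHG5: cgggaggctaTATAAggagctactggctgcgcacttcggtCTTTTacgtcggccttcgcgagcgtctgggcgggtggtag
SNHG12: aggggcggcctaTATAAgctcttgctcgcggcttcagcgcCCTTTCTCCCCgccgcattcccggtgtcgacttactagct
SNHG7: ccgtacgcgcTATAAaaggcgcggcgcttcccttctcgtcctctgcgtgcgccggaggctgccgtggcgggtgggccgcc
SNHG8: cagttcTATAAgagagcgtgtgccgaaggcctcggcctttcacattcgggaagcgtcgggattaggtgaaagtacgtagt

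The RefSeq start differed from the deposited start by 464 bases for ZFAS1 and 19 bases for SNHG12, and by 1058 bases for GAS5, so whether a TOP start is seen depends on the annotation. In GENCODE release 29, 6 of the 13 GAS5 transcripts that begin within 10 bases of the deposited start had a TOP start, as did 3 of 5 for SNHG5, 2 of 5 for SNHG16 and 1 of 2 for SNHG8. None did for ZFAS1 (0 of 4), SNHG12 (0 of 3), SNHG1 (0 of 2), SNHG7 (0 of 3) or SNHG15 (0 of 4), and for DANCR no transcript began there. The first 40 bases of 1 such transcript of GAS5 (first base 173867989 on the minus strand of chromosome 1) and of SNHG16 (first base 76557769 on the plus strand of chromosome 17), chosen for their TOP start, are given 5′ to 3′ with the tract in capitals.
GAS5: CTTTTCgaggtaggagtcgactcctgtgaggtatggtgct
SNHG16: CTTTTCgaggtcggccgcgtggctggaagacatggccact

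The windows were also searched for 4 other motifs on both strands. The E-box CACGTG, bound by MYC and related factors, occurred in 1 of the 9 (SNHG7) against 7.26% of all promoters. The cyclic AMP response element TGACGTCA (1.85% of all promoters), the composite C/EBP-ATF site TGATGNAA (3.62%) and the AP-1 site TGACTCA (4.95%) occurred in 0 of the 9, which says only that these letters are not in these windows.

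In control cells the host RNAs were among the well expressed genes. On the TPM scale, which divides the counts by the annotated exon length, SNHG5 was highest at 1046 ± 49.8 TPM (SD, n = 3). GAS5, which can bind the glucocorticoid receptor, followed at 352 ± 1.47 TPM. ZFAS1, which is read divergently from the RNA-binding protein gene ZNFX1, was at 246 ± 3.76 TPM, SNHG1 at 186 ± 7.95, DANCR at 163 ± 1.08, SNHG16 at 122 ± 3.78 and SNHG8 at 111 ± 1.14. The control libraries of each of these did not overlap those of the next. The order also depends on the annotated exon lengths, and no other lengths were tried. For ZFAS1, 464 of the 1028 counted bases lie before the RefSeq start, so its place relative to GAS5 is not settled. SNHG15 (70.3 ± 5.67 TPM, libraries from 64.1 to 75.3) and SNHG7 (64.2 ± 0.801 TPM, libraries from 63.3 to 64.8) overlapped, and SNHG12 was lowest at 61.7 ± 0.654 TPM. Over all 12 libraries the 10 host RNAs lay between percentiles 82.0 and 99.2 of the tested genes by mean TPM.

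The sum of the 10 host RNAs moved with the treatment. It was 841 ± 12.4 CPM in control cells, 775 ± 1.22 CPM with trametinib, 1033 ± 26.2 CPM with EC359 and 1230 ± 17.5 CPM with both agents (mean ± SD of 3 libraries). The sum was thus higher with EC359, lower with trametinib alone, and highest when trametinib was given together with EC359. Its value is set mostly by SNHG5, ZFAS1, SNHG16 and GAS5, and the 10 RNAs are described one by one in the next paragraphs.

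**Figure D2:**
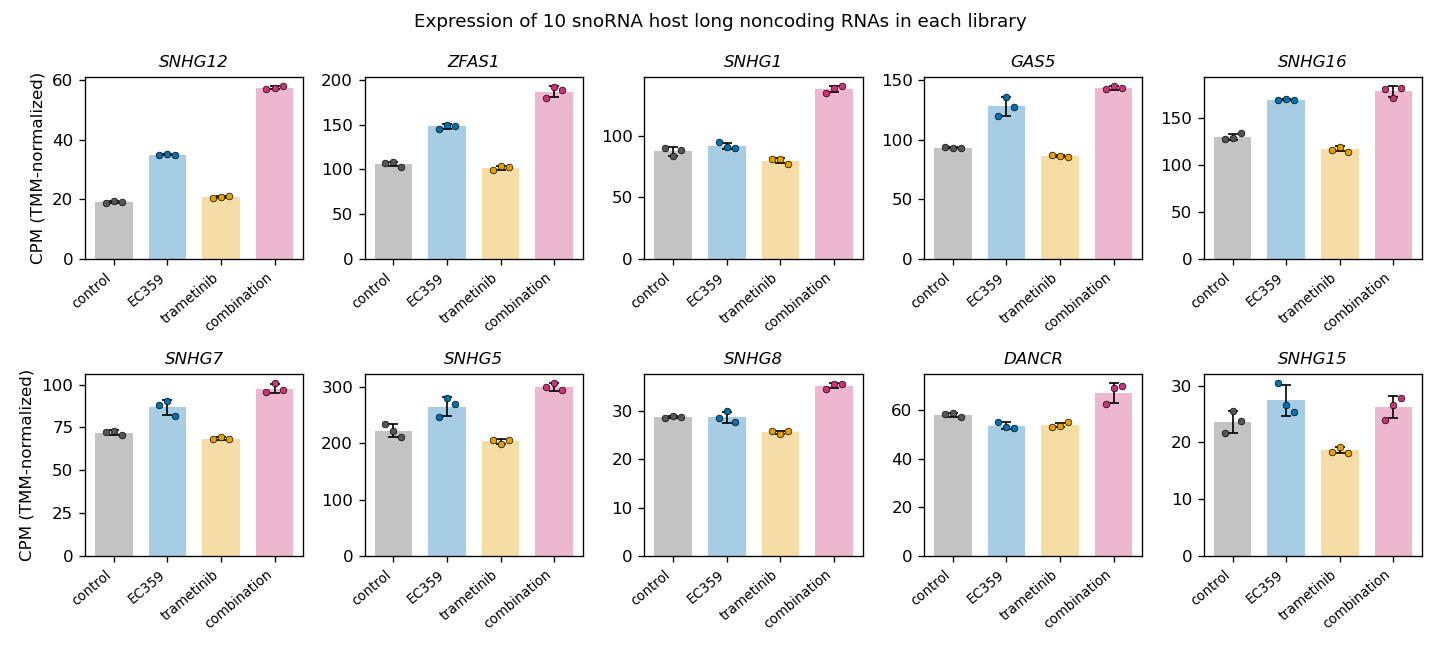
CPM (TMM-normalized, linear axis from 0) of each host RNA in the 12 libraries. Points are single libraries, bars are means and error bars are SD of 3 libraries; in 9 of the 10 panels all 3 combination libraries lie above the 9 others, and SNHG15 is the exception.

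With EC359 alone, 8 of the 10 host RNAs were higher than in control cells at an adjusted p-value under 0.05, 1 was lower and 1 did not pass. Over all tested genes 30.8% were called higher and 30.3% lower, so calls in either direction were common. The median log2 fold change of the 10 was 0.26, against -0.01 for all tested genes. Scaling by total counts in place of TMM moved the median of all genes to -0.15 and the numbers of genes called higher and lower from 4576 and 4501 to 3115 and 6677. The host RNAs were then 5 higher and 2 lower, and the calls of SNHG5 (log2 0.12, adjusted p = 0.0504) and SNHG15 (log2 0.08, adjusted p = 0.296) were among those lost.

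SNHG12 changed most with EC359. It was at 18.9, 19.4 and 19.0 CPM in the control libraries and at 34.7, 35.2 and 35 CPM in the EC359 libraries. The groups were far apart, a rise of 1.83-fold (log2 0.87, SE 0.05, adjusted p = 3.5e-22, edgeR quasi-likelihood test with Benjamini-Hochberg adjustment, as for every adjusted p in these paragraphs).

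ZFAS1, the host of the SNORD12 family, was at 107, 108 and 103 CPM in control and at 145, 150 and 148 CPM with EC359. Its groups did not overlap and the rise was 1.39-fold (log2 0.48, SE 0.03, adjusted p = 1.2e-20). GAS5 was at 93.6, 93.2 and 92.6 CPM in control and at 120, 136 and 127 CPM with EC359. It rose by 1.38-fold (log2 0.46, SE 0.03, adjusted p = 1.3e-18), with a wider spread among the EC359 libraries than among the controls. SNHG16, host of the SNORD1 family, rose from 130 ± 3.08 to 169 ± 0.488 CPM (log2 0.38, adjusted p = 2.7e-17). SNHG7 rose from 72 ± 1.43 to 86.7 ± 4.49 CPM (log2 0.27, adjusted p = 2.5e-09), and SNHG5 from 222 ± 11.7 to 265 ± 17.5 CPM (log2 0.26, adjusted p = 0.00076). For these 3 the EC359 libraries were all above the control libraries.

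Of the 4 remaining host RNAs, SNHG15 rose with overlapping groups, SNHG1 and SNHG8 were near the control level, and DANCR was below it. SNHG1 had 90.1, 83.4 and 88.1 CPM in control and 94.7, 90.9 and 90.0 CPM with EC359, a call close to the threshold (log2 0.07, SE 0.03, adjusted p = 0.0489) that turned to a log2 of -0.06 (adjusted p = 0.118) with total counts and was lost with DESeq2 (adjusted p = 0.0643). The SNHG1 call was also lost without control 2, control 3, EC359 1, EC359 2, trametinib 1 or trametinib 2, with a log2 of 0.04 (adjusted p = 0.308) without control 2 as the lowest. SNHG15, a short-lived RNA that hosts SNORA9, was at 21.6, 25.5 and 23.8 CPM in control and at 30.5, 26.6 and 25.3 CPM with EC359. The SNHG15 groups overlapped, and the rise (log2 0.21, SE 0.06, adjusted p = 0.00448) fell to a log2 of 0.14 (adjusted p = 0.0795) without EC359 1.

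SNHG8, host of SNORA24, was at 28.5, 29 and 28.8 CPM in control and 28.5, 29.9 and 27.7 CPM with EC359. The means were both 28.7 CPM and the groups overlapped (95% interval of the log2 difference -0.10 to 0.10, adjusted p = 0.968). With total counts SNHG8 was called lower at a log2 of -0.14 (adjusted p = 0.0167). DANCR, a suppressor of differentiation that hosts SNORA26, was at 58.5, 59.0 and 57.4 CPM in control and 55.4, 53.2 and 52.6 CPM with EC359. DANCR was thus the 1 host RNA that fell, with separate groups (log2 -0.12, SE 0.04, adjusted p = 0.01), and the call was lost without EC359 3 (log2 -0.10, adjusted p = 0.0529).

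**Figure D3:**
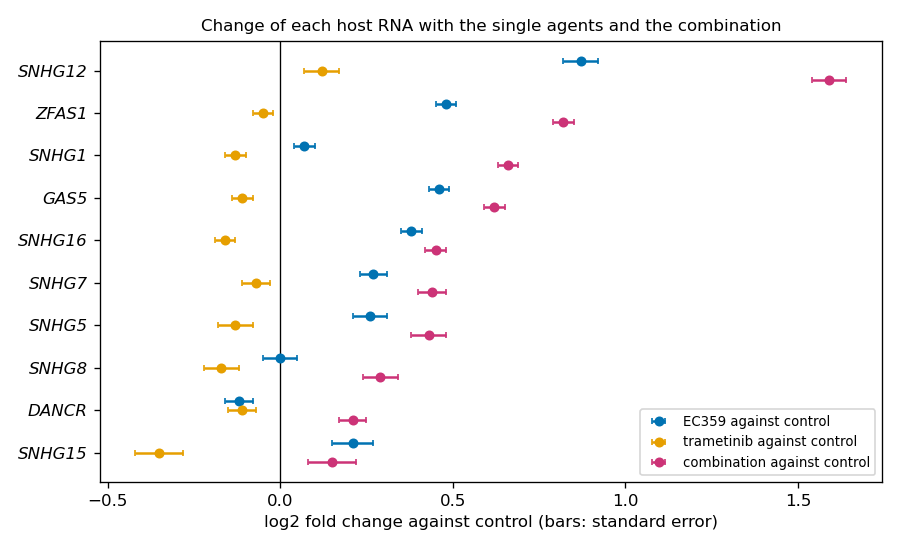
Log2 fold change against control for each host RNA with EC359 (blue), trametinib (orange) and the combination (magenta); bars are standard errors from the edgeR fit. The combination values lie between 0.15 (SNHG15) and 1.59 (SNHG12), and all trametinib values but that of SNHG12 lie below 0.

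Trametinib alone moved the host RNAs little and mostly downward. Of the 10, 6 were lower than in control cells (GAS5, SNHG1, SNHG8, SNHG15, SNHG16 and DANCR), against 15.2% of all tested genes. None was higher by edgeR with TMM or by DESeq2 at an adjusted p-value under 0.05, and 1 (SNHG12) was higher at an unadjusted p under 0.05, against 13% of all tested genes called higher. The median log2 fold change was -0.12, against 0.00 for all genes.

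SNHG15 fell most. Its trametinib libraries were at 18.4, 19.2 and 18.2 CPM, all below the 21.6 to 25.5 CPM of the control libraries (log2 -0.35, SE 0.07, adjusted p = 4.8e-05). SNHG8 had 25.8, 25.2 and 25.8 CPM with trametinib, below the 3 control libraries (log2 -0.17, adjusted p = 0.00972). SNHG16 went from 130 ± 3.08 to 117 ± 2.54 CPM (log2 -0.16, adjusted p = 1.4e-05). SNHG1 went from 87.2 ± 3.42 to 79.8 ± 2.25 CPM, with all trametinib libraries below the control libraries (log2 -0.13, adjusted p = 0.00241).

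GAS5 was lowered only slightly, from 93.2 ± 0.479 to 86.2 ± 0.682 CPM, with libraries at 87.0, 86.0 and 85.6 CPM that were apart from control (log2 -0.11, SE 0.03, adjusted p = 0.00787). DANCR went from 58.3 ± 0.816 to 54 ± 0.968 CPM (log2 -0.11, adjusted p = 0.0315). The DANCR call was lost without control 1, control 2, trametinib 1 or trametinib 2, where adjusted p reached 0.112 at a log2 of -0.10, and also with total counts (adjusted p = 0.106) and with DESeq2 (adjusted p = 0.0907), which called 5 of the 10 lower.

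The 4 host RNAs without a call differed in direction. SNHG5 was at 203 ± 4.23 CPM, with its libraries all below control (log2 -0.13, adjusted p = 0.0741), and passed the threshold without control 3 (log2 -0.17, adjusted p = 0.0082), EC359 1 (adjusted p = 0.00045) or EC359 2 (adjusted p = 0.0105). SNHG7 (log2 -0.07, adjusted p = 0.137) and ZFAS1 (log2 -0.05, adjusted p = 0.223, overlapping libraries) had 95% intervals that reached -0.14 and -0.11. SNHG12 was the 1 host RNA whose trametinib libraries, at 20.4, 20.7 and 21.0 CPM, lay above all control libraries (log2 0.12, SE 0.05, adjusted p = 0.0999). With total counts in edgeR, SNHG12 was called higher with trametinib (log2 0.14, adjusted p = 0.0393).

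With the combination, 10 of the 10 host RNAs were higher than in control cells, against 35% of all tested genes called higher and 34.7% called lower. The median log2 fold change was 0.44, against -0.01 for all genes. Only SNHG12 was at least 2-fold higher as well, against 7.27% of all tested genes. With total counts, which moved the median of all genes by a log2 of -0.14 and the genes called higher and lower from 5201 and 5152 to 3838 and 6811, the calls of DANCR (log2 0.07, adjusted p = 0.109) and SNHG15 (log2 0.01, adjusted p = 0.93) were lost and the other host RNAs were still called higher.

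SNHG12 was at 56.9, 57.5 and 58.0 CPM in the combination libraries, a 3.01-fold rise over control (log2 1.59, SE 0.05, adjusted p = 2.2e-35). ZFAS1 reached 180, 192 and 189 CPM, a 1.77-fold rise (log2 0.82, SE 0.03, adjusted p = 6.6e-32). SNHG1, which had hardly moved with either agent alone, reached 135, 139 and 140 CPM, a 1.58-fold rise (log2 0.66, SE 0.03, adjusted p = 9.1e-26). Every combination library of these 3 RNAs was above every library of the other conditions. GAS5 was at 142, 145 and 143 CPM (1.54-fold, log2 0.62, adjusted p = 1.3e-24).

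SNHG16 (178 ± 5.99 CPM, log2 0.45, adjusted p = 1.6e-20), SNHG7 (97.7 ± 2.83 CPM, log2 0.44, adjusted p = 1e-16) and SNHG5 (libraries at 299, 307 and 294 CPM, log2 0.43, adjusted p = 7.6e-06) rose by 1.35-fold to 1.36-fold. SNHG8 had 34.5, 35.5 and 35.5 CPM (log2 0.29, SE 0.05, adjusted p = 9.5e-07). DANCR had 62.6, 69.2 and 70.0 CPM (log2 0.21, SE 0.04, adjusted p = 5.9e-06). SNHG8 and DANCR were therefore above control with the combination although neither was above control with a single agent.

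SNHG15 was the weakest of the 10, at 24, 26.6 and 27.9 CPM. Its combination libraries overlapped both the control and the EC359 libraries (log2 0.15, SE 0.07, adjusted p = 0.0443). The call was lost without control 1 (log2 0.09, adjusted p = 0.259), control 3, trametinib 1, trametinib 2, trametinib 3, combination 2 (log2 0.14) or combination 3 (log2 0.10, adjusted p = 0.226), and DESeq2 did not make it (adjusted p = 0.104).

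All 3 combination libraries were above all 9 others for 9 of the 10 host RNAs, against 17.6% of all tested genes. EC359, the combination and the interaction were all called higher for 8 of the 10 (all but SNHG8 and DANCR), against 6.4% of all tested genes, and for 5 with total counts. The comparisons with control share their control libraries, so their values for 1 RNA are not independent of each other.

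The comparison of the combination with each single agent asks what the second agent added. Against EC359, 9 of the 10 host RNAs were higher in the combination, against 24.1% of all tested genes. SNHG12 rose by a further 1.64-fold (log2 0.72, SE 0.05, adjusted p = 6.6e-20). SNHG1 rose by 1.5-fold (log2 0.59, SE 0.03, adjusted p = 1.7e-22), which was nearly all of its rise over control. ZFAS1 (log2 0.34, adjusted p = 3.9e-15), DANCR (log2 0.33, adjusted p = 9.8e-10) and SNHG8 (log2 0.29, adjusted p = 2.6e-06) rose by 1.23-fold to 1.27-fold, and SNHG5 (log2 0.18), SNHG7 (log2 0.17) and GAS5 (log2 0.16) by 1.12-fold to 1.13-fold.

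SNHG16 was only marginally higher in the combination than with EC359, although its libraries did not overlap (log2 0.07, SE 0.03, adjusted p = 0.0411). That call was lost without control 1, EC359 1, EC359 2, EC359 3, combination 1 or combination 3 (lowest log2 0.05, adjusted p = 0.195, without combination 3). It was also lost with DESeq2 (adjusted p = 0.0933) and, in edgeR, with DESeq2 size factors (adjusted p = 0.0517) and total counts (adjusted p = 0.0604). The same held with no filter on low counts (adjusted p = 0.0769) and with the compared groups alone (adjusted p = 0.054). SNHG15 was the 1 host RNA not called against EC359 (log2 -0.07, 95% interval -0.19 to 0.06, adjusted p = 0.432).

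Against trametinib, 10 of the 10 host RNAs were higher in the combination, against 35.3% of all tested genes. The log2 differences ran from 0.32 for DANCR to 1.47 for SNHG12 with a median of 0.59. SNHG15, the weakest against control, was also higher here, and its combination and trametinib libraries did not overlap (24 to 27.9 against 18.2 to 19.2 CPM, log2 0.49, adjusted p = 1.3e-08). With total counts the median of all genes moved by a log2 of -0.16 and the genes called higher and lower went from 5241 and 4895 to 3500 and 7078.

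Adding trametinib thus had opposite directions without and with EC359 for several host RNAs. For 5 of the 10 (GAS5, SNHG1, SNHG8, SNHG16 and DANCR), the level was called lower with trametinib than with vehicle and higher in the combination than with EC359, against 1.55% of all tested genes. These 2 comparisons share no library. The count was 3 (GAS5, SNHG1 and SNHG8) without control 1, with DESeq2 and with total counts, and those 3 were in it under each other setting with no minimum fold. For SNHG1, trametinib changed the level by a log2 of -0.13 on vehicle and by 0.59 on EC359. The values were -0.17 and 0.29 for SNHG8 and -0.11 and 0.33 for DANCR. GAS5 (-0.11 and 0.16) and SNHG16 (-0.16 and 0.07) showed the same signs with smaller changes on EC359.

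**Figure D4:**
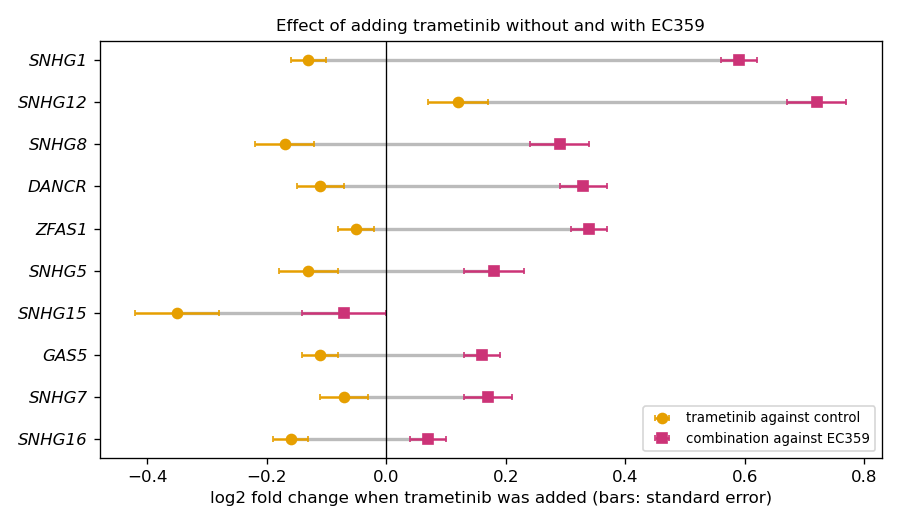
Log2 change when trametinib was added to vehicle (orange circles, trametinib against control) and to EC359 (magenta squares, combination against EC359) for each host RNA; bars are standard errors and grey lines join the pair. In all 10 the square lies to the right of the circle, by 0.23 (SNHG16) to 0.71 (SNHG1).

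The interaction term tests that difference directly, as the log2 change in the combination beyond the sum of the log2 changes with each agent. It was called positive for 10 of the 10 host RNAs, against 14.4% of all tested genes called positive and 15.9% called negative. It was largest for SNHG1 (0.71, SE 0.05, adjusted p = 1.8e-18), SNHG12 (0.60, SE 0.07, adjusted p = 7.3e-10), SNHG8 (0.46, SE 0.07, adjusted p = 9.9e-07), DANCR (0.44, SE 0.06, adjusted p = 1.4e-08) and ZFAS1 (0.40, SE 0.04, adjusted p = 6.1e-11). SNHG8 and DANCR, which were not higher with EC359 alone, are among these 5, whereas GAS5, which rose by 1.38-fold with EC359, had an interaction of 0.27.

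SNHG5 (0.31), SNHG15 (0.28), GAS5 (0.27), SNHG7 (0.24) and SNHG16 (0.23) had the smaller interactions, with adjusted p-values from 4e-06 for GAS5 to 0.0177 for SNHG15. The SNHG15 interaction fell under the threshold without control 2 (0.23, adjusted p = 0.0751), EC359 2 (0.26), EC359 3 (0.23), or combination 3 (0.24) and with DESeq2 (adjusted p = 0.0582). With total counts the interaction was still called positive for each of the 10.

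The snoRNAs inside the host genes have rows of their own in the tables. Mature snoRNAs have no poly(A) tail, and these rows were sparse in the poly(A) libraries (mean counts from 2.75 to 139, against 674 to 6946 for the hosts), and whether a count came from a mature snoRNA, a precursor or an unspliced host intron cannot be told apart. The 3 C/D snoRNAs of ZFAS1 and the snoRNA of SNHG12 with the largest change with EC359, SNORD99, are given as GENCODE release 29 lists them (GRCh38), 5′ to 3′, at chr20:49280683-49280772, chr20:49280319-49280409 and chr20:49278940-49279028 (plus strand) and chr1:28578749-28578822 (minus strand). Capitals mark TGATGA within the first 20 bases (the C box) and CTGA within the last 20 bases (the D box), and SNORD99 holds no exact TGATGA there.
SNORD12: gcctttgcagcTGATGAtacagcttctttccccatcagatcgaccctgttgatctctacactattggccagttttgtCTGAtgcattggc
SNORD12B: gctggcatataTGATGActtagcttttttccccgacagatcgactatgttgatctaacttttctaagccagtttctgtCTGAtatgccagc
SNORD12C: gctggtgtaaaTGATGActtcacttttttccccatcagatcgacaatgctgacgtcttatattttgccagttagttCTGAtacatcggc
SNORD99: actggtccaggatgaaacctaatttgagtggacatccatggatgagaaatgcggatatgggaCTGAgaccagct

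Of the 35 nested snoRNA rows, 33 passed the filter on low counts, and a sequence was matched for 14 of the 27 C/D snoRNAs. With EC359, 8 of the 33 were higher and 2 lower (median log2 0.15), smaller shares than the 30.8% and 30.3% of all tested genes. With the combination, 17 were higher and 2 lower than in control (median log2 0.52), against 35% and 34.7% of all tested genes. In the combination 13 were higher than with EC359, against 24.1% of all tested genes. With trametinib the log2 changes lay between -0.54 and 0.42, and the smallest adjusted p was 0.0673 (SNORD76 in GAS5).

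In SNHG12, the SNORD99 row rose with EC359 (log2 1.62, adjusted p = 1.5e-06) and with the combination (log2 1.97, adjusted p = 7.6e-09), and the SNORA61 row rose with both as well (log2 0.49 and 1.19). In ZFAS1, SNORD12 (log2 1.43) and SNORD12C (log2 1.5) rose with the combination, while SNORD12B had a log2 of -0.19 (adjusted p = 0.612). In SNHG5, SNORD50A (log2 1.24 with EC359 and 1.16 with the combination) and SNORD50B (1.02 and 1.64) rose with both.

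In SNHG1 the snoRNA rows, like the exons, were higher mainly in the combination. SNORD26 was at a log2 of -0.01 with EC359 and 0.97 with the combination (adjusted p = 5.5e-06), with an interaction of 1.02 (adjusted p = 0.00237), and SNORD25 was at 0.15 and 0.82 with an interaction of 0.67 (adjusted p = 0.0338). SNORD22 and SNORD31 were lower with EC359 (log2 -0.59 and -0.58). In SNHG8, which rose in the combination, the SNORA24 row instead fell (log2 -1.61, adjusted p = 0.00231, counts from 1 to 29). In GAS5, 3 of 10 rows rose with the combination (SNORD74, SNORD79 and SNORD80) and SNORD78 fell (log2 -0.78, adjusted p = 0.0479). That count is no larger a share than the 35% of all tested genes called higher.

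Of the host genes, 3 start within 1000 bases of a gene on the opposite strand. The libraries were strand-specific and counted by strand. SNHG1 starts 124 bases from SLC3A2, the heavy chain of the cystine and leucine transporters. SLC3A2 was at 197 ± 1.68 CPM in control cells and 197 ± 3.53 with trametinib, against 444 ± 5.02 with EC359 and 581 ± 10.6 when both agents were given, so it had a large rise with EC359 (log2 1.18, adjusted p = 1.1e-43) where SNHG1 had a log2 of 0.07. Its interaction was 0.38 (adjusted p = 9.6e-14) against 0.71 for SNHG1.

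ZFAS1 starts 41 bases from ZNFX1 in the deposited annotation. ZNFX1 was at 73.1 ± 2.26 CPM in control cells, 74.2 ± 0.487 with trametinib, 83 ± 1.35 with EC359 and 113 ± 2.49 with both. Its log2 change was 0.18 with EC359 and 0.62 with the combination, against 0.48 and 0.82 for ZFAS1, and the interactions were 0.42 and 0.40. GAS5 starts 368 bases from ZBTB37, a zinc finger gene that was low in every condition (1.4 ± 0.495 CPM in control) and lower in the combination (0.714 ± 0.17 CPM, log2 -0.97, adjusted p = 0.00206), where GAS5 was higher.

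Other snoRNA host long noncoding RNAs were mixed in direction against control. Of those listed, 15 were in the tables and 14 were tested. With EC359, 5 were higher and 3 lower (median log2 0.12), against 30.8% and 30.3% of all tested genes. With the combination, 8 were higher and 2 lower (median log2 0.38), against 35% and 34.7%. In the combination against EC359, 8 were higher and 0 lower, against 24.1% of all tested genes called higher. The interaction was positive for 7 and negative for 0 (median 0.30), against 14.4% and 15.9%, so the positive direction was shared with the 10 host RNAs. SNHG17 and LRRC75A-AS1 followed the 5 RNAs described above. SNHG17 had 27.4 CPM in control cells, 21.8 with trametinib, 33.8 with EC359 and 41.3 with both. It changed by a log2 of -0.33 with trametinib alone and 0.29 when trametinib was added to EC359. LRRC75A-AS1, at 259 CPM in control cells, changed less with trametinib alone (log2 -0.07, adjusted p = 0.0323). Its change when trametinib was added to EC359 was a log2 of 0.17 (adjusted p = 3.3e-08). EPB41L4A-AS1 rose most with the combination (from 7.21 to 17.5 CPM, log2 1.28, adjusted p = 2.5e-20). SNHG19 went the other way, from 10.8 CPM in control to 5.93 with EC359 and 6.56 with the combination (log2 -0.72, adjusted p = 1.2e-08). SNHG17, LRRC75A-AS1 and SNHG19 were singled out after their values had been seen.

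Protein-coding genes also host snoRNAs. A first list held 35 hosts, nearly all for ribosomal proteins or translation factors, with the chaperone HSPA8 and nucleolin (NCL) among them. In that list 30 were higher and 4 lower with the combination (median log2 0.19), against 35% and 34.7% of all tested genes, and 18 were higher and 6 lower with total counts. With EC359 28 were higher and 4 lower, against 30.8% and 30.3% of all tested genes, and with trametinib 10 were lower, against 15.2%. The interaction was positive for 23 and negative for 1 (median 0.12), against 14.4% and 15.9% of all tested genes. The translation initiation factor EIF4A2 (178 ± 3.48 to 342 ± 4.31 CPM, log2 0.94), the elongation factor EEF2 (log2 0.58) and the poly(A)-binding protein PABPC4 (log2 0.49) rose most with the combination. A second list held 15 other hosts, among them genes for nucleolar proteins such as NOP56 and DKC1 and for proteins of other kinds such as the importin IPO7 and the chromatin remodeler CHD8. In that list 3 were higher and 10 lower with the combination (median log2 -0.38), against 35% and 34.7% of all tested genes. With total counts 2 were higher and 12 lower. The interaction was positive for 4 and negative for 7 (median 0.01), against 14.4% and 15.9% of all tested genes. TAF1D, a subunit of the RNA polymerase I factor SL1, rose from 57.3 ± 0.73 to 190 ± 8.81 CPM (log2 1.73, interaction 0.94), while the ribosome assembly factors PPAN (log2 -1.16) and WDR43 (log2 -0.97) fell.

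**Figure D5:**
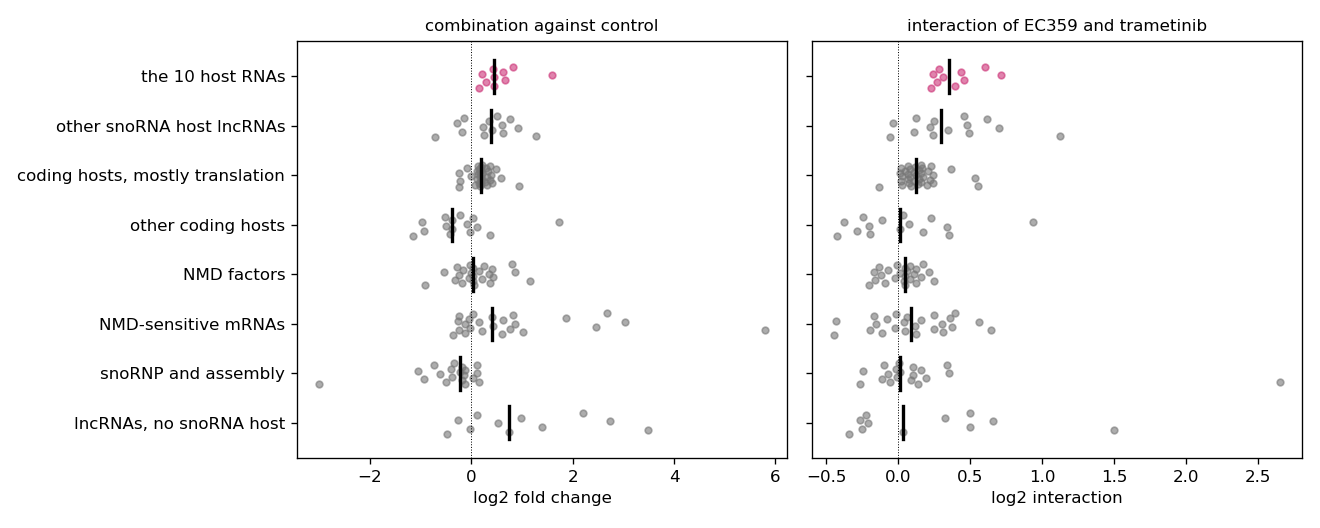
Log2 fold change with the combination (left) and log2 interaction (right) for the tested genes of each list; each point is a gene and the black bar is the median. The 10 host RNAs (magenta) lie above 0 in both panels, with medians of 0.44 and 0.35, while the second list of coding hosts has medians of -0.38 and 0.01.

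Of 19 tested genes for proteins that bind or build snoRNA particles, 14 had lower and 3 had higher mRNA with the combination (median log2 -0.22), against 34.7% of all tested genes called lower. With total counts 16 were lower and the 3 higher calls were lost. With trametinib alone 15 were lower, against 15.2% of all tested genes. ZNHIT6, a C/D particle assembly factor (log2 -1.05), DKC1, the pseudouridine synthase of H/ACA particles (194 ± 1.48 to 102 ± 2.86 CPM, log2 -0.93), and NUFIP1, an assembly platform (log2 -0.75), fell most among those of at least 1 CPM. In the combination most of these mRNAs were thus lower where the 10 host RNAs were higher. With trametinib alone the 2 sets did not part, as 15 of these mRNAs and 6 of the host RNAs were lower and 0 of either were higher.

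Of 24 genes for NMD factors, 10 were higher and 7 lower with the combination (median log2 0.04), shares near those of all tested genes, and 8 were higher and 13 lower with total counts. The decapping factor DCP1A (log2 1.16) and the kinase SMG1 (log2 0.86) rose, and SMG8, a partner of SMG1, fell (log2 -0.92). Of 24 mRNAs known to be sensitive to NMD, 15 were higher and 6 lower (median log2 0.41), against 35% and 34.7% of all tested genes. With total counts 13 were higher and 9 lower. The stress genes ATF3 (3.29 ± 0.441 to 183 ± 2.96 CPM, log2 5.79), GADD45A (log2 3.03) and SLC7A11 (log2 2.67) led that list, and these genes are also known to be induced at transcription under stress. The interaction was positive for 11 of the 24 and negative for 3 (median 0.09), against 14.4% and 15.9% of all tested genes.

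Long noncoding RNAs that host no snoRNA differed among themselves. Of 11 tested, 6 were higher and 1 lower with the combination (median log2 0.74), against 35% and 34.7% of all tested genes. NEAT1, the scaffold of paraspeckles, rose from 60 ± 0.565 to 278 ± 5.61 CPM (log2 2.21) and KCNQ1OT1, an imprinted antisense RNA, from 5.09 ± 0.946 to 34.3 ± 0.448 CPM (log2 2.75). MIR22HG had the highest log2 of the list (3.48, SE 0.86, adjusted p = 0.00542) at a low level of 1.74 ± 1.16 CPM. Of the 11, 3 had a positive interaction and 2 a negative one (median 0.03), against 14.4% and 15.9% of all tested genes, and NEAT1 rose with trametinib alone (log2 0.70, adjusted p = 1e-25).

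The genes of at least 10 CPM whose 3 log2 changes against control lay closest to the median of the 10 host RNAs (0.26 with EC359, -0.12 with trametinib, 0.44 with the combination) were TXNL1 (root mean square difference 0.017), TRMT1 (0.020), LUC7L (0.026), ITFG2 (0.026) and CDC25A (0.027). The measure spans 3 comparisons that share their control libraries. TXNL1, a thioredoxin-like protein of the proteasome, had log2 changes of 0.28, -0.10 and 0.43, and TRMT1, a tRNA methyltransferase, of 0.24, -0.14 and 0.44.

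The counting itself touched the host RNAs unevenly. Reads with several placements or several genes were divided as fractions, and a value that was not whole occurred in 12 of the 12 libraries for SNHG5, 11 for GAS5 and 9 for SNHG16, down to 1 for SNHG15. The part of those shared reads in the changes was not tested. Exons of genes on the opposite strand overlap exons of GAS5 (GAS5-AS1), ZFAS1 (ZNFX1), SNHG7 (FAM69B) and SNHG12 (TRNAU1AP), and the strand setting keeps their reads apart.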

How the data were processed

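RNA from OVCAR8 cells was measured in 12 stranded poly(A) libraries with 100 bp paired reads, 3 per condition. Per the file headers, the authors counted reads with featureCounts 1.5.0-p1 (minimum mapping quality 2, reverse-stranded, exons summed by gene in an hg38 annotation, multiply placed reads divided as fractions). The submitters' processing notes also name bcl2fastq and HISAT2. The deposited values are estimated counts, were not normalized and were not whole for 12.4% to 15.1% of genes. They were rounded.

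In R 4.3.3, filterByExpr of edgeR 4.0.16 (minimum count 10, total 15) kept 14865 genes, and 6337 genes had no count. TMM factors ranged from 0.947 to 1.06. A robust quasi-likelihood fit over all 12 libraries gave each comparison and the interaction, with Benjamini-Hochberg adjustment over all tested genes and a threshold of 0.05. The biological coefficient of variation was 3.95%. SEs were derived from the F statistics. In data simulated for the combination against control (14686 genes), 200 of 200 genes changed by 2-fold were recovered with 7 false calls. No smaller change was simulated and few genes changed. The simulation therefore does not cover the smaller changes of most host RNAs, or data in which most genes are called. Alternatives were DESeq2 1.42.0, other scalings and filters, the compared groups alone, a replicate block, unrounded counts and leaving out each library.

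All 10 host RNAs are named. Up to 3 genes per list were named by the largest change in the combination, then opposite-strand neighbors within 1000 bases, nested snoRNAs and the 5 genes most alike. Members and lists were chosen with earlier results of these data known, some genes are in several lists, and the lists came from general knowledge. Promoters were from RefSeq (GRCh38.p14) and transcripts from GENCODE 29.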

Additional observations from a re-analysis of the deposited data

Results flagged for a closer look

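The effect of one agent differed with the other agent present for each of the 10 host RNAs, as tested by the interaction term of the edgeR quasi-likelihood fit. The log2 interaction was 0.71 for SNHG1, 0.60 for SNHG12, 0.46 for SNHG8, 0.44 for DANCR, 0.40 for ZFAS1, 0.31 for SNHG5, 0.28 for SNHG15, 0.27 for GAS5, 0.24 for SNHG7 and 0.23 for SNHG16. All 10 passed the adjusted threshold, and 9 passed it with DESeq2, with SNHG15 as the exception.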

How the results depend on the processing

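Each of the 60 values of the host RNAs (10 RNAs in 6 comparisons) was recomputed under up to 20 other settings. Of 1190 recomputed values, 681 with 1 library left out and 446 under other settings kept their direction and their side of the threshold. A change of sign occurred for SNHG1 with EC359 under total counts (log2 -0.0595), for SNHG15 in the combination against EC359 (log2 0.00949 without EC359 1, and from -0.12 to 0.00949 over all libraries left out), and for SNHG8 with EC359, whose change was near 0 (log2 0.0047 with DESeq2, 0.0034 with DESeq2 size factors, and -0.0319 to 0.0243 with 1 library left out). With total counts, the host RNAs called with EC359 were 5 higher and 2 lower, and 1 was called higher with trametinib. Requiring at least a 2-fold change as well left 1 host RNA higher in the combination than in control and 1 higher than with trametinib, and 0 in the combination against EC359, with EC359 in either direction, lower with trametinib, and in the interaction. With 1 library left out, the number lower with EC359 ranged from 0 to 1. The labels do not say whether libraries with the same number were paired. Correlations of deviations over all tested genes showed no sign of pairing (-0.083 to 0.064 for the same number, -0.11 to 0.13 for others). With 3 libraries per condition and sparse genes included, these correlations cannot exclude it. The fit with a replicate block lost the calls of SNHG1 with EC359 (adjusted p = 0.0528) and SNHG15 in the combination (adjusted p = 0.0529), and no other call of a host RNA. Depth was not limiting for the host RNAs, but the nested snoRNA rows were sparse.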
